A study of Mus musculus with 14 samples.

Results

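The genes described here are 29 genes of visceral endoderm and of the yolk sac epithelium that forms from it, out of 19938 genes with a value. They were chosen by name, from what the cell layer is known to make, with earlier results of these data known. Each gene was read from a probe set annotated to it alone, and where a gene had several, from the one with the highest mean signal over the 14 arrays. All 29 of 29 were measured. The samples were mouse embryonic stem cells differentiating as embryoid bodies, which are floating aggregates in which early cell layers form, and each sample was profiled on 1 Affymetrix array.

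Doxycycline at 1 µg/ml was given from day 2 to day 3 to switch on ER71/Etv2, GATA2 and, as titles and genotypes have it, Scl. Of the 3 factors that the design text counts, it gives the names of 2. Doxycycline-treated cells, whose genotype label is co-expression of the factors, were taken at 6 h (day 2.25, 1 array), at 12 h (day 2.5, 3 arrays) and at 24 h (day 3, 3 arrays). The control groups, without doxycycline, were taken on day 2.25 (1 array), day 2.5 (3 arrays) and day 3 (3 arrays). Their genotype label is wild-type, but their source names give the same inducible cells, iEGS for replicates 1 and 2 and iB1 for replicate 3. No doxycycline-treated cells without the factors were analysed here, so doxycycline and the factors cannot be told apart. Whether each line is 1 clone is not given in the sources used here. The cells had been kept on PMEF feeder cells, and all groups shared the same differentiation medium with serum and ascorbic acid.

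Visceral endoderm is the epithelium that wraps the early mouse embryo and later lines the yolk sac. It takes up maternal proteins and lipids through large endocytic receptors at a brush border, and it secretes apolipoproteins and serum proteins before the liver exists. The nuclear receptor Hnf4a drives much of that secretory programme. In embryoid bodies the layer forms at the outer surface, and blood islands arise next to it in the yolk sac.

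The arrays carried the induction. Gata2, Tal1 (the gene of Scl) and Etv2 were higher in induced cells, by 4.44, 2.48 and 3.11 on the log2 scale at 12 h and by 3.95, 2.30 and 1.94 at 24 h. Median signals lay between 5.51 and 5.60 on all 14 arrays. In the spread of its signals, induced 24 h replicate 3 stood apart. Its lower quartile was 4.39, against at most 4.26 on the others, and its SD over genes was the smallest, at 1.91. Array weights from limma were lowest for induced 24 h replicate 1 (0.270), then for induced 24 h replicate 3 (0.318). The induced 24 h array of replicate 1 was left out only with its whole replicate. Calls of members that leaving out induced 24 h replicate 3 ends or adds are given with that value.

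Most of the defining visceral endoderm genes gave little signal. As a guide to what a silent gene reads, 1015 odorant receptor genes had a median of 3.15 and a 95th percentile of 4.64 on the log2 scale. That guide was chosen after the values were seen. Of the 29 members, 11 had a mean below 4.64, as did 34.5% of all genes. They were Afp, Ttr, Apoa4, Apob, Apom, Cubn, Fga, Fgb, Fgg, Slc2a2 and Vil1. Among the 7 defining markers Hnf4a, Afp, Ttr, Apob, Apoa1, Amn and Cubn, 4 lay below that level. The name of the gene set therefore describes where these genes are known to be used, and not a cell layer shown in these samples. Signals of different probe sets are not RNA levels, so the guide is rough, and members were not ranked by it.

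**Figure D1:**
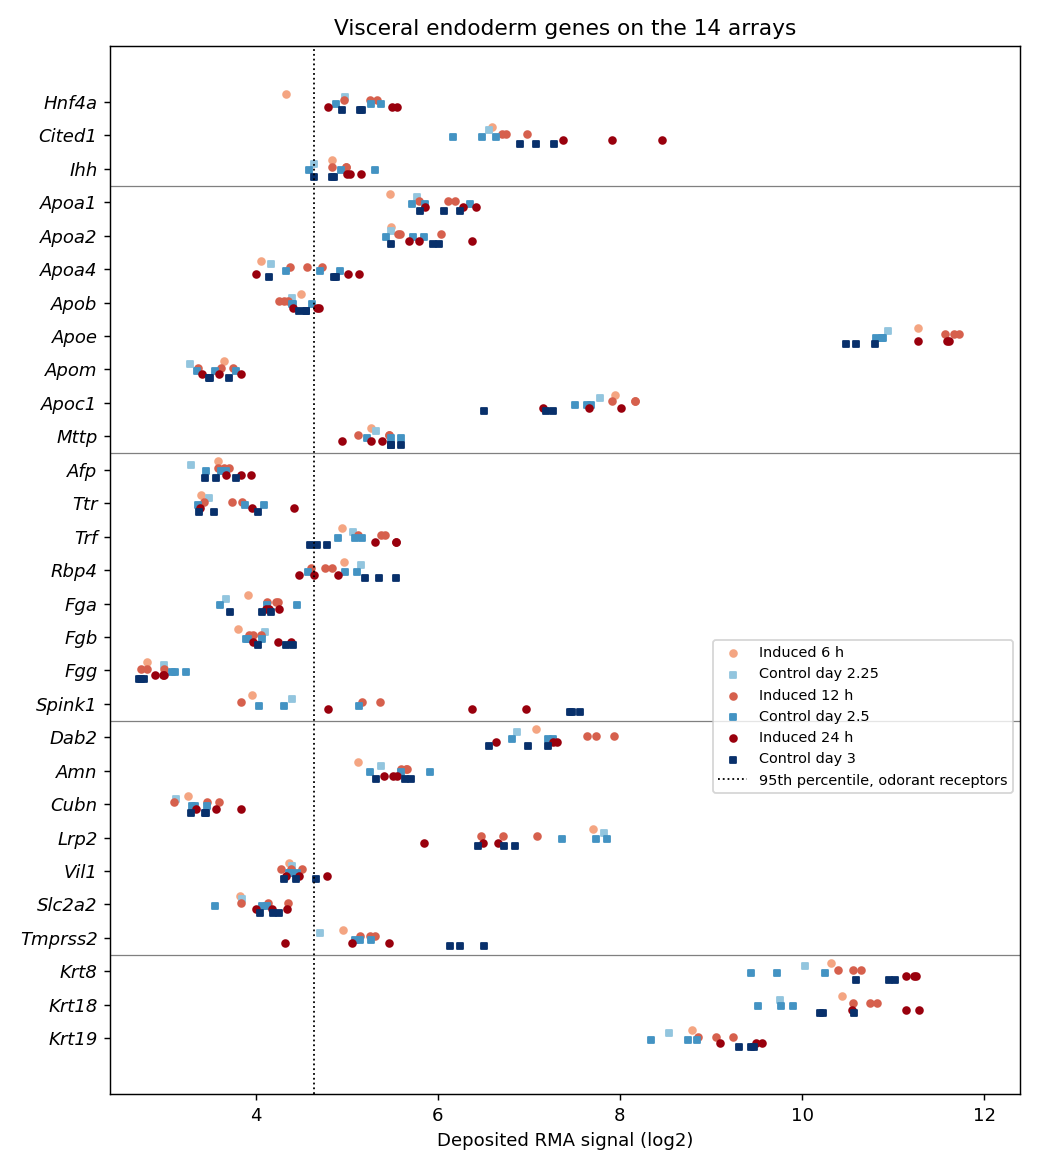
Signal of each of the 29 members on every array, on the log2 scale, grouped by role. The dotted line is the 95th percentile of odorant receptor genes (4.64); 11 members have a mean below it.

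Few members passed the test for induction. At 12 h, 2 of the 29 were higher in induced cells and 0 lower, namely Krt18 and Apoe (limma, Benjamini-Hochberg adjusted p under 0.05 over all genes). At that time 0.813% of all genes were called higher and 0.577% lower. With the replicate number as a block, 4 members were higher (Apoe, Krt18, Krt8 and Dab2) and 1 lower (Lrp2), while the calls over all genes went up as well, to 441 against 277 without the block. At 24 h, Apoe, Cited1 and Trf were higher and Tmprss2 and Rbp4 lower, so 3 and 2 of the 29, where 2.03% of all genes were higher and 3.43% lower. The block added Krt18 and Spink1 there, 1 in each direction, with 1565 genes called over all genes, against 1088 without it. The members' median change was 0.05 at 12 h and 0.15 at 24 h on the log2 scale, against -0.01 and -0.00 over all genes. At an unadjusted p under 0.05, 5 members were higher and 2 lower at 12 h, and 5 were higher and 3 lower at 24 h, while 6.96% and 16.1% of all genes passed.

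Groups without overlap were more common. At 12 h, 7 members had every induced array above every control array and 3 had every one below, where 6.78% and 7.72% of all genes did; at 24 h the counts were 6 and 4, beside 7.6% and 10.9%.

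The calls rest on few arrays. Over the 5 contrasts of the replicated groups there were 11 calls on 8 members. Without replicate 2 all 11 were lost, with adjusted p between 0.0643 and 0.706. Calls over all genes dropped in that fit as well, to 80 against 277 at 12 h, 392 against 1088 at 24 h, 21 against 151 for control time and 21 against 360 for induced time. Without replicate 3, which is also the only iB1 replicate, 1 remained, that of Tmprss2 at 24 h, and the others had adjusted p between 0.088 and 0.591. Calls over all genes dropped there too, to 103 against 277 at 12 h and 476 against 1088 at 24 h. For control time they were 17 against 151, and for induced time 53 against 360. Without replicate 1 all 11 remained, and 4 were added, of Krt8 at 12 h, Apoc1 and Krt18 at 24 h, and Spink1 between the induced times. Over all genes that fit called 214 against 277 at 12 h and 1281 against 1088 at 24 h. It called 189 against 151 for control time and 459 against 360 for induced time. Leaving out the induced 24 h array of replicate 3 alone lost 3 calls, 2 of Cited1 and 1 of Rbp4, with adjusted p between 0.0613 and 0.17, and added calls of Lrp2, Spink1 and Tmprss2. Over all genes that fit called 341 at 12 h, 982 at 24 h, 215 for control time and 269 for induced time. The direction of all 11 was kept in each of these fits. RNA came from whole aggregates, so fewer cells of a type and less RNA per cell cannot be told apart.

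**Figure D2:**
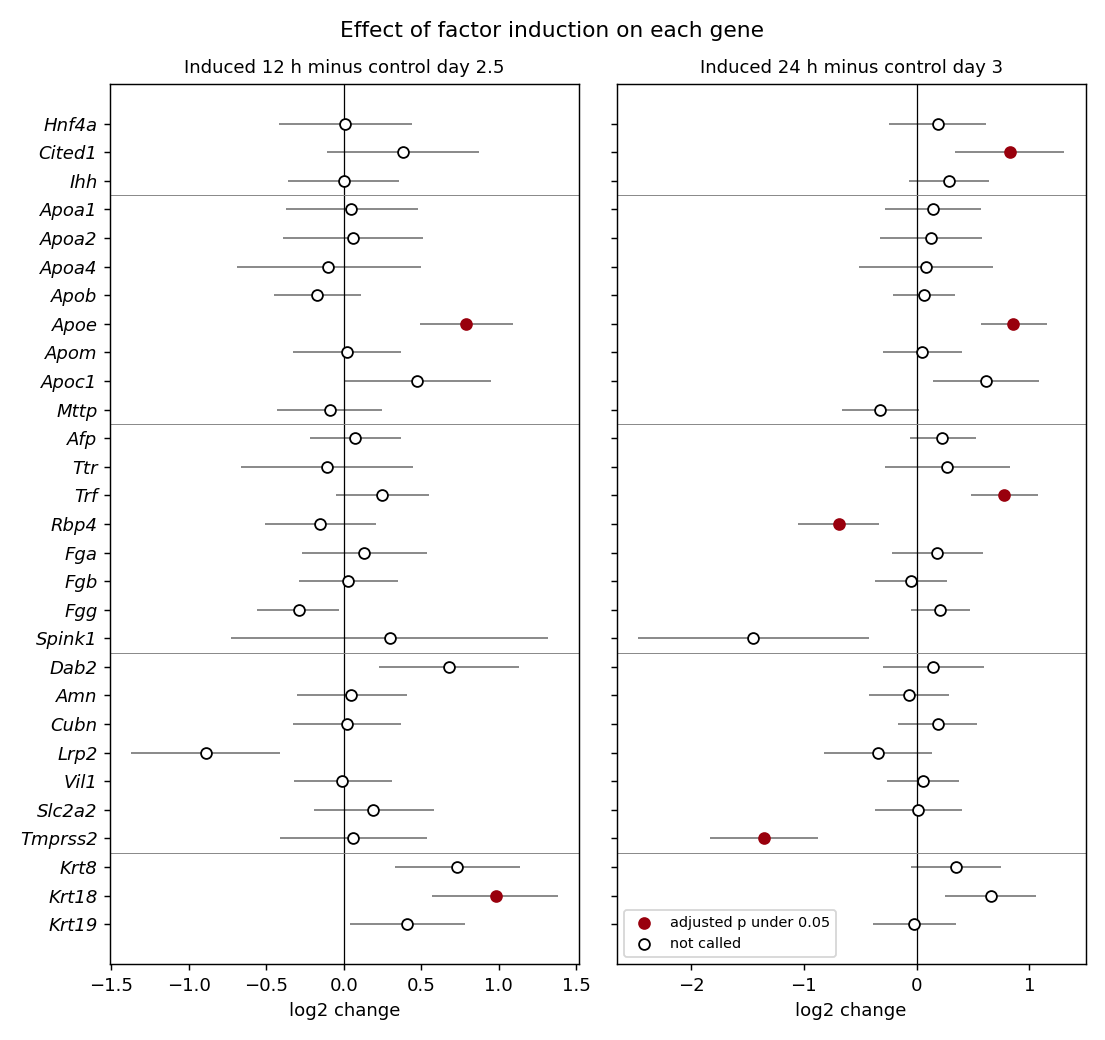
Log2 change of each member, induced minus control of the same day, at 12 h and at 24 h, with 95% confidence intervals from limma (3 arrays a group). Apoe lies above 0 at both times, and Tmprss2 lies furthest below 0 among the called members at 24 h.

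Among the regulators, Hnf4a did not pass the test. It read 4.97, 5.33 and 5.25 in cells induced for 12 h, against 4.88, 5.37 and 5.26 in day 2.5 controls. In cells induced for 24 h it read 4.79, 5.50 and 5.55, against 4.95, 5.15 and 5.17 in day 3 controls. The groups overlapped at both times. The changes of 0.01 (95% confidence interval -0.42 to 0.44) and 0.19 (-0.24 to 0.62) leave room for either direction. At 6 h the single induced array read 4.33 and the day 2.25 control 4.98, without a replicate.

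Cited1, a transcriptional coactivator that works with CBP and p300, was higher at 24 h. It read 7.37, 7.91 and 8.46 in cells induced for 24 h, against 7.28, 7.08 and 6.90 in day 3 controls, so the groups did not overlap but the first replicate differed by only 0.09. The change was 0.83 ± 0.228 (SE; 1.77-fold), with a limma adjusted p of 0.0498, against 0.0685 after quantile normalization again and 0.164 with only the 2 groups in the fit. After 12 h it read 6.75, 6.98 and 6.70 in induced cells, against 6.49, 6.17 and 6.64 in day 2.5 controls, and was not called (0.38, adjusted p = 0.982). With the induced 24 h array of replicate 3 left out, the change against control was 0.55 (adjusted p = 0.17). Cells induced for 24 h were also above those induced for 12 h, by 1.10 ± 0.228 (adjusted p = 0.0233; 0.0613 without that one array and 0.122 with only the 2 groups). Ihh, a hedgehog ligand made by visceral endoderm, changed by -0.00 and 0.29 at the 2 times and passed no test.

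Apoe, which carries lipid into cells through the LDL receptor family, was the one member called higher at both induction times in the fit without the block; with it, Krt18 was too. It read 11.67, 11.57 and 11.72 in cells induced for 12 h, against 10.81, 10.89 and 10.88 in day 2.5 controls. After 24 h it read 11.27, 11.61 and 11.59 in induced cells, against 10.80, 10.59 and 10.48 in day 3 controls. Every induced array was above every control array at both times. The change was 0.79 ± 0.139 (SE; 1.73-fold, adjusted p = 0.00694) at 12 h and 0.86 ± 0.139 (1.82-fold, adjusted p = 0.00123) at 24 h. On the single arrays at 6 h it read 11.27 in induced cells and 10.94 in controls.

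Its neighbour on the chromosome, Apoc1, encodes a small apolipoprotein of the same lipoproteins. It read 7.91, 8.16 and 8.17 in cells induced for 12 h, against 7.51, 7.64 and 7.68 in day 2.5 controls, and 7.16, 8.01 and 7.66 in cells induced for 24 h, against 7.27, 7.19 and 6.51 in day 3 controls. Its changes of 0.47 and 0.62 did not pass the test (adjusted p = 0.723 and 0.155). The groups did not overlap at 12 h and overlapped at 24 h. Without replicate 1 the 24 h change was 0.98 and was called (adjusted p = 0.013), and it was called with array weights too.

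Apob, the structural protein of the particles that visceral endoderm secretes, stayed dim. It read 4.35, 4.26 and 4.31 in cells induced for 12 h, against 4.62, 4.41 and 4.40 in day 2.5 controls. The cells induced for 24 h read 4.41, 4.67 and 4.69, against 4.55, 4.48 and 4.55 in day 3 controls. The changes were -0.17 (-0.45 to 0.11) and 0.07 (-0.21 to 0.34), and the groups did not overlap at 12 h. Every array induced for 24 h was above those induced for 12 h, by 0.28 on average (0.01 to 0.56). That difference was called only with array weights (adjusted p = 0.397 without them). Apoa1, Apoa2, Apoa4 and Apom, other lipoprotein parts, and Mttp, which loads lipid onto Apob, changed by between -0.32 (Mttp at 24 h) and 0.15 and were not called. Mttp lay wholly below control at 24 h and was called there with array weights. Of the 8 members of this role, 1 was therefore called at each time.

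The promoters of Cited1, Apoe, Rbp4, Tmprss2, Krt8 and Krt18 are shown because these are the called members for which one was at hand. Each is the 250 bases before the RefSeq start on GRCm38.p6, 5′ to 3′ on the strand of the gene. They lie at chrX:102252182-102252431 for Cited1 (minus), chr7:19699189-19699438 for Apoe (minus), chr19:38125322-38125571 for Rbp4 (minus), chr16:97611196-97611445 for Tmprss2 (minus), chr15:102004343-102004592 for Krt8 (minus) and chr15:102027966-102028215 for Krt18 (plus). Capitals mark matches, on either strand, to GATAA (read by GATA factors), CCGGAA or CAGGAA (ETS factors such as Etv2) and CAGATG or CAGCTG (E-boxes, read by Tal1 with its partners).
Cited1: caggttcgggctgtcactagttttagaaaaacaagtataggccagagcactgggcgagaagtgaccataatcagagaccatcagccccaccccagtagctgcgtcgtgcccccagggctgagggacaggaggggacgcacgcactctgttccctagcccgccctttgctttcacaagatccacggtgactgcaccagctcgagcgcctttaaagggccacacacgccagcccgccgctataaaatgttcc
Apoe: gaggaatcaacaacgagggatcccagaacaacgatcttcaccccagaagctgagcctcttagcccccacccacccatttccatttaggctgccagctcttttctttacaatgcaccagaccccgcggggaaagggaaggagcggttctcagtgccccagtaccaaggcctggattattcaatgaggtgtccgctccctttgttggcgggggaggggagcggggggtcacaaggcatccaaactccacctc
Rbp4: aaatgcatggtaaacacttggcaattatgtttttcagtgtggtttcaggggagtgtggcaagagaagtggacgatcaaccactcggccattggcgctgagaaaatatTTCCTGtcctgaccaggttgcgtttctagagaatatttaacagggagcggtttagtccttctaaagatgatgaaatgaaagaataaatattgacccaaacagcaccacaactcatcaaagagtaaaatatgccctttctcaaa
Tmprss2: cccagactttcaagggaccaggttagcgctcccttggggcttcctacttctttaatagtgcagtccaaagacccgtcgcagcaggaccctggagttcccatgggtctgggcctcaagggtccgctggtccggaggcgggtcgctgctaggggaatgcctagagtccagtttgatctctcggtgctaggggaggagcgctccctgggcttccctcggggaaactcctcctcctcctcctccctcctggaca
Krt8: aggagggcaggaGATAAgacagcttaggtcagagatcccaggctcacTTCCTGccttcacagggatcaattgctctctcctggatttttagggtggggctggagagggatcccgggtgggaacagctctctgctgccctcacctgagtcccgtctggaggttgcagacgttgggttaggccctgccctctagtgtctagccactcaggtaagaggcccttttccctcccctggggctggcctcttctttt
Krt18: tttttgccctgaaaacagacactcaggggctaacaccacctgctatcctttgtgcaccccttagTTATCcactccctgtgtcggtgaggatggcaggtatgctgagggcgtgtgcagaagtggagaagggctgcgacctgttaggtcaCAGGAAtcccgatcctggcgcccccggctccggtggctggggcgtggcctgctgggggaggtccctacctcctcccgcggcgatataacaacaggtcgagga

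Krt8 held 1 GATA match, 238 bases before the start, and 1 ETS match at 203. Krt18 held 1 GATA match at 186 and 1 ETS match at 102, and no 2 of these overlap. Rbp4 held 1 ETS match at 143, and Cited1, Apoe and Tmprss2 held 0 of each kind. Promoters were at hand for 24 of the 29 members. Of those 24, 9 (37.5%) held a GATA match, against 23.0% of 27025 genes, 12 (50.0%) an ETS match, against 34.9%, and 4 (16.7%) an E-box, against 25.3%. Short motifs occur often by letters alone, and a match is a description of the sequence.

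Among the serum proteins, the classic visceral endoderm products Afp and Ttr stayed near the level of silent genes. Afp, the fetal counterpart of albumin, read 3.65, 3.71 and 3.59 in cells induced for 12 h, against 3.62, 3.67 and 3.45 in day 2.5 controls. At 24 h the induced cells read 3.67, 3.84 and 3.95, against 3.56, 3.44 and 3.78 in day 3 controls. Its changes of 0.07 (-0.22 to 0.37) and 0.23 (-0.06 to 0.53) were not called.

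Ttr, which carries thyroid hormone and binds Rbp4, read 3.43, 3.74 and 3.85 in cells induced for 12 h, against 3.37, 4.09 and 3.88 in day 2.5 controls. At 24 h the induced arrays read 3.39, 3.96 and 4.42, against 3.38, 3.54 and 4.02 in day 3 controls. The groups overlapped, and the changes were -0.11 (-0.66 to 0.45) and 0.27 (-0.28 to 0.83). Fga, Fgb and Fgg, the chains of fibrinogen, lie side by side in the genome and changed by between -0.29 and 0.21. A second Fga probe set, at a mean of 3.94, changed by 0.02 at 12 h and 0.34 at 24 h.

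Trf (transferrin, the iron carrier of serum) was higher at 24 h. It read 5.31, 5.54 and 5.54 in cells induced for 24 h, against 4.59, 4.78 and 4.67 in day 3 controls, with no overlap. The change was 0.78 ± 0.139 (SE; 1.72-fold, adjusted p = 0.00285). After 12 h it read 5.37, 5.42 and 5.12 in induced cells, against 5.17, 4.90 and 5.09 in day 2.5 controls, a change of 0.25 that was not called (adjusted p = 0.919).

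Rbp4, which carries retinol in serum, was lower at 24 h. It read 4.64, 4.90 and 4.47 in cells induced for 24 h, against 5.35, 5.20 and 5.54 in day 3 controls. The groups did not overlap, and the change was -0.69 ± 0.168 (SE; 1.62-fold lower, adjusted p = 0.0243, or 0.0752 with only the 2 groups in the fit). After 12 h it read 4.61, 4.84 and 4.76 in induced cells, against 4.57, 4.98 and 5.11 in day 2.5 controls (-0.15, adjusted p = 0.999). With the induced 24 h array of replicate 3 left out, the change was -0.59 (adjusted p = 0.0849).

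Spink1, a secreted trypsin inhibitor, changed most with time in controls. It read 7.47, 7.45 and 7.56 in day 3 controls, against 4.04, 5.13 and 4.31 in day 2.5 controls, a difference of 3.00 ± 0.479 (SE, adjusted p = 0.00666). The 95% confidence interval of that difference was 1.97 to 4.03. Of the day 2.5 arrays, 2 were below the 4.64 of the odorant receptor guide. With those set to it, the group mean of Spink1 was 6.45-fold higher on day 3, an estimate and not a lower limit. Cells induced for 24 h read 4.79, 6.38 and 6.97, all below the day 3 controls, and cells induced for 12 h read 3.84, 5.36 and 5.17. The induced minus control difference at 24 h was -1.45 (-2.47 to -0.42) and was not called (adjusted p = 0.118). It was -0.83 without replicate 1, whose induced 24 h array read lowest (adjusted p = 0.0663), and -1.91, and called, without the induced 24 h array of replicate 3 (adjusted p = 0.0341). With the replicate number as a block it was (adjusted p = 0.00833), as was the difference of 1.25 between cells induced for 24 h and for 12 h (adjusted p = 0.281 without the block and 0.0383 with it). That difference was 1.41 without replicate 1 (adjusted p = 0.01) and 0.79 without the induced 24 h array of replicate 3 (adjusted p = 0.674). With array weights, the induction difference at 24 h and that between the induced times were called as well.

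Among the endocytic and brush border members, Tmprss2, a serine protease of the apical membrane, was the one called. It read 4.32, 5.06 and 5.46 in cells induced for 24 h, against 6.24, 6.13 and 6.51 in day 3 controls. The groups did not overlap, and the change was -1.35 ± 0.222 (SE; 2.55-fold lower, adjusted p = 0.00153). After 12 h it read 5.25, 5.14 and 5.31 in induced cells, against 5.15, 5.09 and 5.27 in day 2.5 controls, and was not called (0.06, adjusted p = 0.999). In controls it was higher on day 3 than on day 2.5 by 1.12 ± 0.222 (2.18-fold, adjusted p = 0.0295).

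The difference between the 24 h and 12 h effects on Tmprss2 was -1.41 ± 0.314 and was not called (adjusted p = 0.0861), but with the replicate block it was (adjusted p = 0.0154), as it was without the induced 24 h array of replicate 3 (-1.67, adjusted p = 0.0112). No member was called in that contrast in the fit without the block, where 0.426% of all genes were (0.1% higher and 0.326% lower). At an unadjusted p under 0.05, 2 members were higher and 3 lower there, beside 5.71% of all genes.

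Lrp2 (megalin), the large receptor that takes up vitamin carriers and lipoproteins, read 7.09, 6.72 and 6.47 in cells induced for 12 h, against 7.86, 7.74 and 7.36 in day 2.5 controls. Its 24 h values were 6.66, 6.50 and 5.85 in induced cells, against 6.73, 6.44 and 6.85 in day 3 controls. The groups separated at 12 h only, and the change of -0.89 ± 0.224 there was not called (adjusted p = 0.0814). With the replicate block it was (adjusted p = 0.0116), and likewise with a line term, after quantile normalization again and with array weights. It was also called without the induced 24 h array of replicate 3 (adjusted p = 0.0237). In controls it read lower on day 3 than on day 2.5 by a log2 difference of -0.98, not called (adjusted p = 0.0658). That difference was called with the block (adjusted p = 0.00773) and without that array (adjusted p = 0.0205). It was also called with a line term, array weights or only the 2 groups in the fit, after quantile normalization again and without dim genes.

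Dab2, the adaptor that couples megalin to clathrin, read 7.64, 7.94 and 7.74 in cells induced for 12 h, against 6.81, 7.21 and 7.27 in day 2.5 controls. Its change of 0.68 was not called (adjusted p = 0.221) but was with the block (adjusted p = 0.0117) and with array weights. At 24 h it read 6.64, 7.31 and 7.26 in induced cells, against 6.56, 7.21 and 6.99 in day 3 controls, a change of 0.15. Cells induced for 24 h were at -0.71 relative to those induced for 12 h (adjusted p = 0.136, and 0.00753 with the block). A second Dab2 probe set, at a mean of 2.80, changed by 0.13 and -0.17. Amn and Cubn, the 2 parts of the cubam receptor, the actin bundler Vil1 and the glucose transporter Slc2a2 changed by between -0.07 and 0.19 at both times and were not called.

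The keratins Krt8, Krt18 and Krt19 form the intermediate filaments of simple epithelia, Krt8 pairing with Krt18, and the genes of that pair are neighbours. Krt18 read 10.82, 10.56 and 10.75 in cells induced for 12 h, against 9.90, 9.52 and 9.77 in day 2.5 controls, with no overlap. The change was 0.98 ± 0.189 (SE; 1.97-fold, adjusted p = 0.0152). After 24 h it read 10.55, 11.28 and 11.14 in induced cells, against 10.57, 10.20 and 10.23 in day 3 controls, so the groups overlapped through replicate 1. The change of 0.66 was not called (adjusted p = 0.0624). It was called with the replicate block (adjusted p = 0.0444) and without replicate 1 (1.00, adjusted p = 0.00224). Calls also came after quantile normalization again or median centring, without dim genes, with array weights and with a prior spread that follows signal.

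Krt8 read 10.65, 10.40 and 10.56 in cells induced for 12 h, against 10.25, 9.44 and 9.73 in day 2.5 controls. After 24 h it read 11.23, 11.25 and 11.14 in induced cells, against 11.02, 10.59 and 10.96 in day 3 controls. Its induction changes of 0.73 and 0.35 were not called (adjusted p = 0.0944 and 0.393). With the replicate block the 12 h one was (adjusted p = 0.0173), as it was without replicate 1 (0.90, adjusted p = 0.0286). That 12 h change was also called after quantile normalization again, with array weights and with a prior spread that follows signal. Cells induced for 24 h differed from those induced for 12 h by 0.67 (adjusted p = 0.107, and 0.0225 with the block). That difference was also called after quantile normalization again and with array weights. In controls Krt8 was higher on day 3 than on day 2.5 by 1.05 ± 0.188 (SE; 2.08-fold, adjusted p = 0.0155, or 0.0629 with only the 2 groups in the fit). Krt19 read 8.86, 9.05 and 9.24 in cells induced for 12 h, against 8.75, 8.34 and 8.85 in day 2.5 controls, and 9.10, 9.56 and 9.49 in cells induced for 24 h, against 9.47, 9.31 and 9.44 in day 3 controls. Its induction changes of 0.41 and -0.02 were not called, nor was its difference of 0.76 with time in controls (adjusted p = 0.0634). That difference was called with the block (adjusted p = 0.0211), a line term, array weights or a prior spread that follows signal, and without dim genes.

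**Figure D3:**
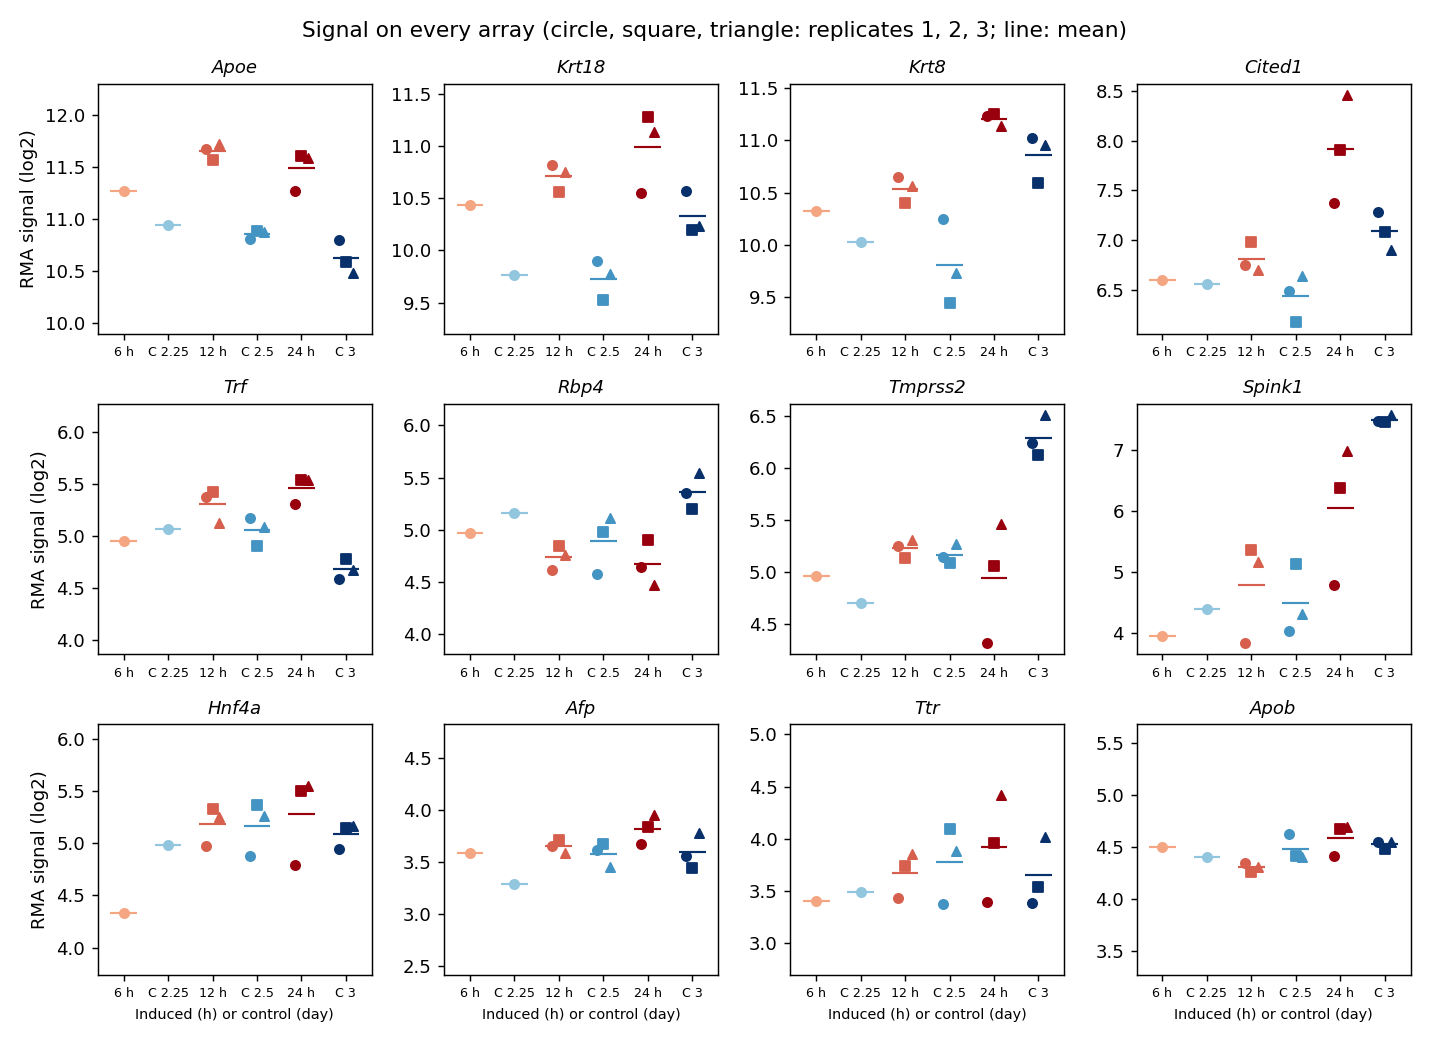
Log2 signal of the members given in full, by group, with circles, squares and triangles for replicates 1, 2 and 3 and a line for the group mean. Apoe sits higher in induced cells at 12 h and 24 h, and Tmprss2 and Spink1 are highest in day 3 controls.

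Without induction, 3 of the 29 were higher on day 3 than on day 2.5 and 0 lower, namely Spink1, Tmprss2 and Krt8, where 0.562% of all genes were called higher and 0.196% lower. At an unadjusted p under 0.05, 7 members were higher and 4 lower, beside 6.56% of all genes. Day 3 arrays were all above day 2.5 arrays for 7 members and all below for 5, where 6.12% and 7.49% of all genes were. In induced cells between 12 h and 24 h, 1 of the 29 was higher (Cited1) and 0 lower, where 0.557% of all genes were higher and 1.25% lower (1.81% in all). At an unadjusted p under 0.05, 4 members were higher and 1 lower, beside 12.1% of all genes. Further, 4 members lay wholly above and 2 wholly below, beside 5.85% and 9.57% of all genes. The 24 h groups and the time contrasts share arrays, so these counts are not separate evidence.

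The 11 dim members moved little in either direction. At 24 h their changes were between -0.05 and 0.27 and 10 of 11 were positive. Their mean was highest on the induced 24 h array of replicate 3, at 4.22 on the log2 scale, against at most 4.06 on the other arrays. After quantile normalization was applied again the changes were between -0.16 and 0.16, and 6 of 11 were positive. Without that array they were between -0.12 and 0.20, and again 6 of 11 were positive. Without the whole of replicate 3 they were between -0.14 and 0.26, with 8 of 11 positive. The count stayed at 10 of 11 without replicate 1 (-0.05 to 0.41) and without replicate 2 (-0.11 to 0.26). Of the 21 members called in no contrast, 10 were highest of the 12 replicated arrays on the induced 24 h array of replicate 3.

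The iB1 samples did not differ from iEGS by the test: 0 members and 0.0% of all genes were called, with 2 members higher and 1 lower at an unadjusted p under 0.05, beside 1528 genes. Without replicate 2, 380 genes were called, Ttr among them as the only member. Line and replicate number 3 cannot be told apart. At 6 h, with 1 array a group and no test, Krt18 was at least 1.5-fold higher in induced cells (0.68) and Hnf4a at least 1.5-fold lower (-0.65), where 1.4% of all genes were higher and 1.29% lower by that much.

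The other members given in full read as follows on the single arrays, induced 6 h against control day 2.25. Krt18 read 10.44 against 9.76 and Krt8 10.32 against 10.03, so both keratins of the pair were above the control. Cited1 read 6.60 against 6.56, Trf 4.95 against 5.07, Rbp4 4.97 against 5.16, Tmprss2 4.96 against 4.70 and Spink1 3.96 against 4.40. Afp read 3.59 against 3.29, Ttr 3.40 against 3.49 and Apob 4.50 against 4.40. None of these but Krt18 reached 1.5-fold.

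Lists of other endoderm genes held larger changes. As with the members, a list name describes where its genes are known to be used, and not a cell layer shown in these samples. At 24 h, 2.03% of all genes were called higher and 3.43% lower. Among 13 factors of extra-embryonic endoderm, Sox7 (3.92) and Hhex (1.48) were higher at 24 h, and Foxa2 (-3.53), Gata4 (-1.60) and Prox1 (-1.10) lower. Sox7 and Hhex are also used in early blood vessels, and of 12 endothelial genes 8 were higher at 24 h and 0 lower. Whether the Sox7 and Hhex changes belong with these was not tested. Of 10 genes of the anterior visceral endoderm, the signalling centre that patterns the head, 1 was higher and 7 lower, with a list median of -1.85. Lhx1 (-3.96) and Otx2 (-2.21) were among them, and so was Cer1, which read 4.19 to 4.72 on the induced arrays, around the level of silent genes. With arrays below 4.64 set to it, the group mean of Cer1 was 32.5-fold lower, an estimate and not a lower limit. Definitive endoderm genes, which share several of these, had 0 of 12 higher and 7 lower. Of 14 genes of parietal endoderm, the other extra-embryonic endoderm layer, 4 were higher and 3 lower, and of 9 trophoblast genes 0 were higher and 2 lower.

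Lists nearer to the uptake, transport and epithelial roles of the layer were counted in the same way, beside the same 2.03% of all genes higher and 3.43% lower. Of 17 genes of lipoprotein handling and sterol synthesis, 0 were higher and 1 lower at 24 h, Vldlr (-0.92). Of 13 genes of endocytosis and the lysosome, 1 was higher, Rab11a (0.75), and 0 lower. Of 12 other serum and binding proteins, 0 were higher and 2 lower, Crabp1 (-2.04) and Crabp2 (-0.95). Of 17 epithelial genes, 1 was higher, Tjp1 (0.65), and 7 lower, with Krt7 (-1.46), Esrp1 (-1.22), Dsp (-0.97) and Cldn6 (-0.88) among them. The list medians were 0.10, 0.06, 0.19 and -0.27.

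Markers of cells that could also make Apoe were measured beside it, where 2.03% of all genes were called higher at 24 h and 3.43% lower. Of 10 macrophage genes, 1 was higher at 24 h, Spi1 (1.26), and the mean over the list was between 4.24 and 4.78 on the induced 24 h arrays, against 4.12 to 4.21 in day 3 controls. Of the 10, 5 lay below 4.64 on every array, namely Ptprc, Csf1r, Adgre1, Itgam and Lyz2. For the others, means at induced 24 h and control day 3 were 7.04 and 7.04 (Cd68) and 5.91 and 4.65 (Spi1). They were 5.36 and 5.11 for Cx3cr1, 5.01 and 4.32 for Tyrobp, and 4.59 and 4.01 for Fcgr3. Changes were positive for 9 of the 10, with a list median of 0.29. Every induced array was above every control array for 2 of them, where 7.6% of all genes were. Of 11 genes of fibroblast feeder cells, Thy1 was higher and Tagln lower, and the list mean was between 5.25 and 5.59 on the induced 24 h arrays, against 5.33 to 5.57 in day 3 controls. Their part in the Apoe result was not tested.

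**Figure D4:**
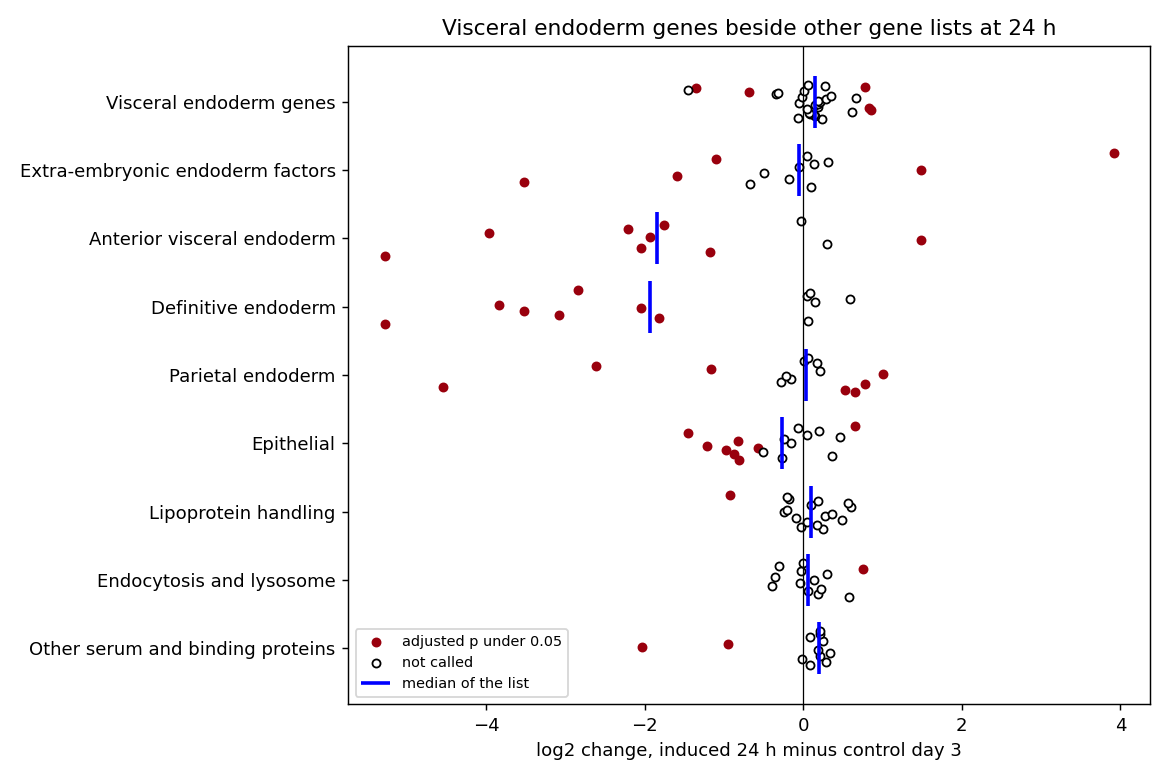
Log2 change at 24 h, induced minus control, of each gene in the member set and the companion lists. Blue lines are list medians, and vertical position within a list is only spacing. The visceral endoderm members lie close to 0 (median 0.15), and the median of the anterior visceral endoderm genes lies below it (-1.85).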

How the data were processed

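Embryoid bodies were profiled on 14 arrays, 1 per sample. The authors deposited 1 table of log2 values over 35556 probe sets. The submitters' processing notes name RMA and Affymetrix Expression Console. Which arrays entered 1 normalization is not given in the sources used here. Such processing pulls low signals towards a floor, so changes of dim genes are understated, and arrays carry no counts, so the number of arrays limits the precision. Of the probe sets, 21789 had 1 gene symbol, 1621 several and 12146 were not listed. Of those with 1 symbol, 21698 were found in the RefSeq table of GRCm38.p6, and the others kept their annotated symbol. With 1 probe set kept for each gene, the 21789 gave 19938 genes.

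The 4 groups of 3 arrays entered 1 limma fit (limma 3.58.1, R 4.3.3; group means, 8 residual and 6.05 prior degrees of freedom), and a call is a Benjamini-Hochberg adjusted p under 0.05 over all genes. On simulated data for the 24 h contrast the fit recovered 81% of changes of log2 size 1 and 98% of size 2, with 8 false calls among 19938 genes. Those arrays were drawn independently, without differences between replicates, lines or arrays, so the figures hold for that setting only. Members and gene lists were chosen with earlier results of these data known. Every member is named; values on every array are given for members called in any contrast and for Hnf4a, Afp, Ttr and Apob, with Apoc1, Lrp2, Dab2 and Krt19 added on the replicated arrays after their values were seen. Companion lists name up to 4 called genes, except that all 5 of the extra-embryonic endoderm factors called at 24 h are named. Replicates are independent experiments in the design text. Deviations of arrays with the same replicate number correlated by 0.573, 0.344 and 0.262 (12 h against day 2.5) and by 0.517, 0.157 and 0.261 (24 h against day 3). Induced 24 h replicate 3 correlated more with control day 3 replicate 2 (0.375) than with its own number. The other correlations across numbers were at most 0.167. Whether the numbers pair all samples is thus not settled, and results that the block changes are given with it. Alternatives were the replicate block, a line term, quantile normalization again, median centring, leaving out dim genes, array weights and a prior spread that follows signal. Further ones were only the 2 groups compared, all 14 arrays, the mean of a gene's probe sets, and leaving out replicates or the induced 24 h array of replicate 3.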

Additional observations from a re-analysis of the deposited data

How the results depend on the processing

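No called member changed direction in any alternative. Counts of members called moved as follows. At 12 h, 2 were called, against 5 with the replicate block, 4 after quantile normalization again and 5 with array weights, and 0 to 3 with a replicate or the induced 24 h array of replicate 3 left out. At 24 h, 5 were called, against 7 with the block, 3 with only the 2 groups in the fit and 9 with array weights, and 0 to 7 with one of these left out. For the change of the effect, 0 were called, against 1 with the block, 1 with the line term and 1 with array weights (Tmprss2 in each), and 0 to 1 with one of these left out (the 1 without that array). For control day 3 against day 2.5, 3 were called, against 5 with the block, 5 with the line term, 5 without dim genes and 5 with array weights, and 0 to 4 with one of these left out (the 4 without that array, and at most 3 without a replicate). For induced 24 h against 12 h, 1 was called, against 4 with the block, 2 after quantile normalization again, 0 with only the 2 groups and 5 with array weights, and 0 to 2 with one of these left out. For the line contrast, 0 were called, and 0 to 1 with one of these left out (Ttr without replicate 2). At 6 h, 2 passed the fold minimum, against 1 after quantile normalization again (Krt18). Over all genes, 277 were called at 12 h, against 80 without replicate 2 and 798 with array weights, and 1088 at 24 h, against 392 and 2634 in the same fits. With the block these were 441 and 1565, with 344 against 151 for control time, 742 against 360 for induced time and 163 against 85 for the change of the effect. After quantile normalization again, 374 were called at 12 h and 448 for induced time, and 139 for the change of the effect. For control time, 17 without replicate 3 and 471 with array weights were called, and for the line 380 without replicate 2, against 0. Over all pairs of a member's contrast and an alternative, 124 kept a call, 29 lost it and 51 gained one. The replicate block changed no member's call beyond those given above with its adjusted p. The causes of these shifts were not tested. Signals near those of silent genes limit what can be seen of 11 members.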
